A study of Mus musculus with 4 samples.

Results

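The genes described here are 42 interferon-stimulated genes of the mouse, found by name among 41342 named genes of the gene count table. All 42 were in the table, and all 42 had the mean of 50 counts or more per library that a gene needed to be tested, as did 11286 genes in all. RNA came from spleen cells freed of those that carry CD43, which leaves mostly resting B cells, of ΔleftPAL and ΔIRIS mice of strain 129. Both alleles change the 3' regulatory region (3'RR), the group of enhancers downstream of the immunoglobulin heavy chain genes. ΔleftPAL mice lack the enhancers hs3a and hs1,2 together with the inverted repeats between them (the left-side IRIS). ΔIRIS mice lack the left-side IRIS too, but keep both enhancers, with hs3a inverted. The absence of the left-side IRIS is therefore common to every library, and no wt library was analysed here. One library of each genotype came from freshly isolated cells (resting) and 1 from cells kept in culture for 48 h with 5 μg per ml lipopolysaccharide (LPS), a component of bacterial walls that activates B cells through TLR4. The cultured cells passed a density gradient again before RNA was extracted. The mice came from embryonic stem cells of strain 129, and their age is not given in the labels.

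Each library was made from pooled animals, 4 per genotype by the labels, and there was 1 library per genotype and condition. Differences between the genotypes therefore have no replicate check, and their intervals cover counting error only. The LPS response was tested over the 2 genotypes as 2 pairs. The spread in this test is thus the difference in LPS change between 2 mutants, and not between replicates. A gene not called may therefore still have changed in 1 genotype. No cells were cultured without LPS, so that the effects of LPS and of 48 h of culture cannot be told apart. The named genes of a library held 23615496 to 29776108 counts, and 3 counts corresponded to 0.102 to 0.123 CPM, the TMM-scaled share of a gene in the counts of its library. The 9 B cell markers summed to 5203 and 4303 CPM in resting ΔleftPAL and ΔIRIS cells and to 2659 and 2694 CPM after LPS. Fewer cells of a type and less RNA per cell cannot be told apart in such bulk RNA.

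Interferons are secreted when a cell senses foreign nucleic acid or bacterial products. Type I interferons bind the receptor of Ifnar1 and Ifnar2, whose kinases Jak1 and Tyk2 set off a complex that holds Stat2 and Irf9. It binds a DNA element, the interferon-stimulated response element (ISRE), in front of many genes. Interferon gamma acts through another element, GAS. The products of the induced genes block virus replication, modify proteins with the ubiquitin-like Isg15, sense RNA and DNA, and in part (Irf7, Irf9, Stat2) strengthen the response itself. Resting B cells carry a low level of many of these transcripts.

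Promoters of 8 members are shown because they hold the ISRE core, which was found in 17 of 30 members searched. The core of the ISRE was searched on both strands as GAAA, any 2 bases (NN) and GAAA again, and its matches stand in capitals. A match on the opposite strand reads TTTC, NN, TTTC. Matches that overlap run together into a longer stretch. The sequences are from RefSeq (GRCm38.p6) and are written 5′ to 3′ on the strand of the gene. They end before the gene start of the RefSeq window, which for Irgm1 lies downstream of the start in the annotation used for positions. The Ifit1 stretch lies at chr19:34640765-34640833 (+) and that of Ifit3 at chr19:34583353-34583436 (+). The others lie at chr12:26456543-26456592 (-) for Rsad2, chr4:156200855-156200916 (-) for Isg15, chr5:120907526-120907565 (-) for Oas1a, chr3:142559979-142560034 (+) for Gbp3, chr11:48871421-48871470 (-) for Irgm1 and chr8:71537567-71537622 (-) for Bst2.
Ifit1: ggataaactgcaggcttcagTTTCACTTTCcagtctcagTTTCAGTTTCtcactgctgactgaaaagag
Ifit3: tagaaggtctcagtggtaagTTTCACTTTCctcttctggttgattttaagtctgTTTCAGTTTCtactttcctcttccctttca
Rsad2: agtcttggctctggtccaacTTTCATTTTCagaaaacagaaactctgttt
Isg15: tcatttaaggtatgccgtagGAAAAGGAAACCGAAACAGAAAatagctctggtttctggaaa
Oas1a: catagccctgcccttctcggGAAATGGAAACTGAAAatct
Gbp3: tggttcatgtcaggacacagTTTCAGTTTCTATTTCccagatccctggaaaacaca
Irgm1: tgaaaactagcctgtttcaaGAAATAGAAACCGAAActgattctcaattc
Bst2: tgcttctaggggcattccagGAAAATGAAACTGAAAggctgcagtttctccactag

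Promoter windows from 250 bases before to 50 after a gene start were at hand for 30 members, in 37 windows. The ISRE core was found in 17 of these 30 genes (56.7%), against 3.99% of 27025 genes of the genome with a window. Among the other interferon-stimulated genes listed below it was found in 19 of 38. Isg15 held 3 overlapping matches, and Ifit1 and Ifit3 held 2 separate ones each. The GAS core, searched as TTCNNNGAA, reads the same on both strands and was found in 8 of the 30 members (26.7%), against 9.55% of the genes. It was present in Bst2, Oas1a, Igtp and Eif2ak2 beside the ISRE core, and in Ifit2, Samhd1, Isg20 and Ifi35 without it. The members' ISRE matches lay mostly within 150 bases before the start. Windows of Dhx58, Rtp4, Mx1, Ifi204, Parp9, Ifi27l2a, Zbp1, Usp18, Pydc3, Iigp1, Parp14 and Oas2 were not analysed here. A match is a description of the letters and not evidence of binding.

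**Figure D1:**
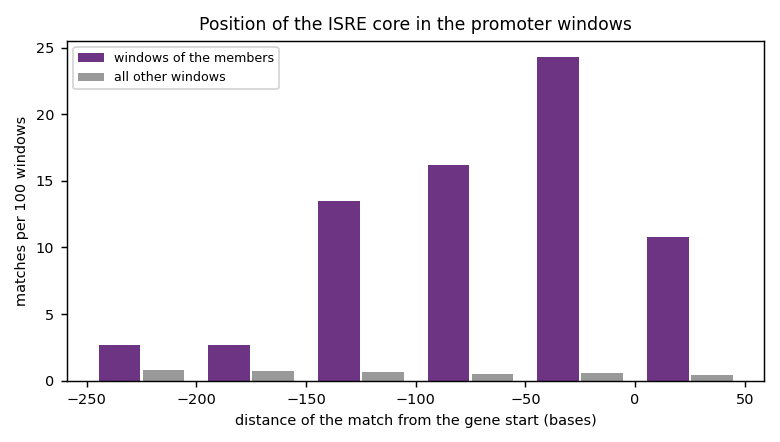
Matches of the ISRE core per 100 promoter windows (vertical axis) in bins of 50 bases by distance from the gene start (horizontal axis), for the 37 windows of the members and the 32814 other windows. The members' bars are highest in the bin just before the start, at 24.3 matches per 100 windows, where the other windows have 0.573.

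In resting cells the interferon-stimulated genes were lower in ΔIRIS than in ΔleftPAL in 41 of 42 cases, where 5638 of 11286 genes were lower. The exception was Gbp2, with 25.2 CPM in ΔleftPAL and 25.7 CPM in ΔIRIS. A level at least 2-fold lower in ΔIRIS was seen for 17 members, where 1.36% of all genes were that much lower. No member was at least 2-fold higher, where 2.41% of all genes were. The members' median log2 ratio (ΔIRIS over ΔleftPAL) was -0.88, against 0.00024 over all genes. The 95% counting interval lay below 0 for 39 members and held 0 for Ifi204, Iigp1 and Gbp2. The matching share of intervals over all genes is not given here, so the 39 are not set against a background. The largest differences were those of Ifit3 (4.65-fold), Usp18 (4.02-fold), Pydc3 (3.81-fold), Ifi44 (3.48-fold) and Ifit1 (3.18-fold). With kallisto estimated counts the log2 ratio of Pydc3 was smaller in size, at -1.29. At the other end of the 39 members whose interval lay below 0, Samhd1, Ifi203, Isg20, Ifih1 and Ddx58 were 1.12-fold to 1.21-fold lower.

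After LPS culture the members' median ratio between the genotypes was close to 0, while single members differed in either direction. Of the 42 members 21 were lower in ΔIRIS, where 45.4% of all genes were lower. This count includes Iigp1, with 1 count in each LPS library. The median log2 ratio of the members was 0.0041, against 0.026 over all genes. The counting interval lay below 0 for 12 members, above 0 for 12 and held 0 for 18. These counts too are given without the share over all genes. A level at least 2-fold lower in ΔIRIS was seen for 4 members (Ifit3, Xaf1, Ifi204 and Pydc3), where 2.15% of all genes were that much lower. No member was at least 2-fold higher, where 0.833% of all genes were. Without a replicate neither of these differences could be tested.

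**Figure D2:**
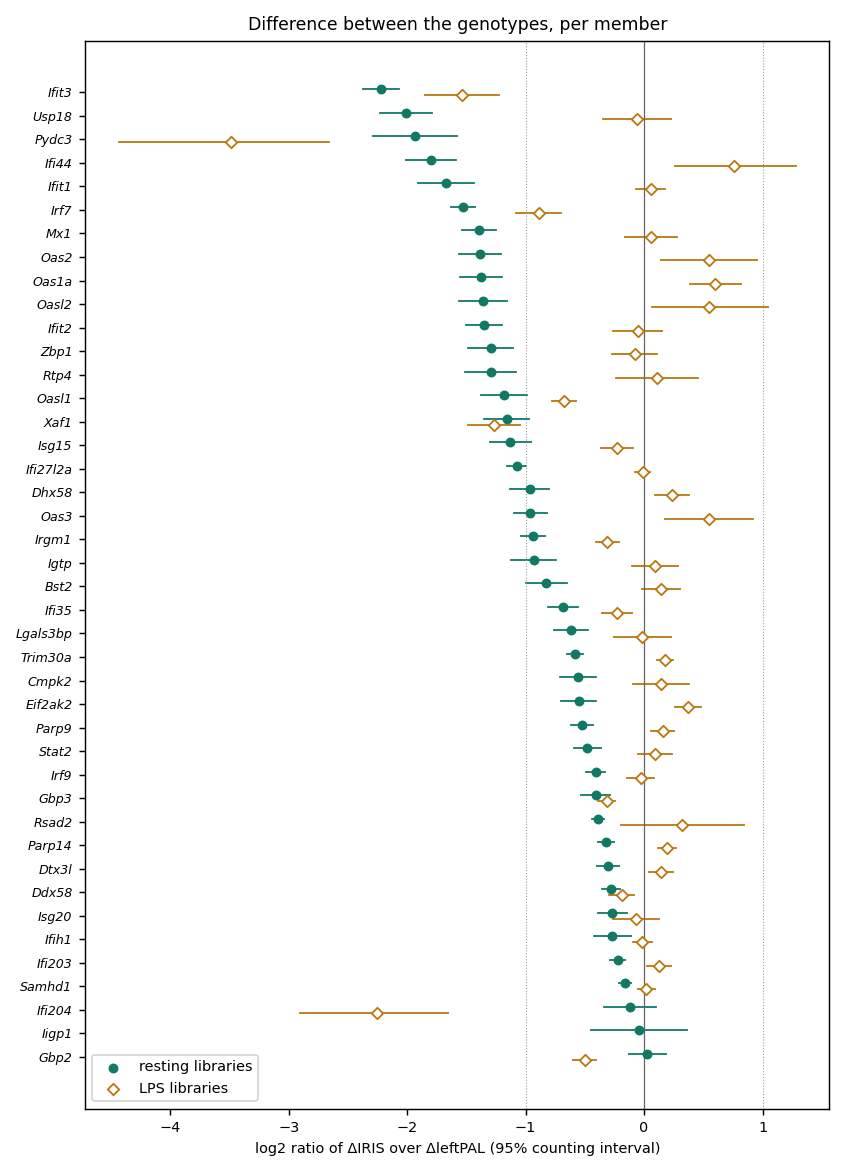
The log2 ratio of ΔIRIS over ΔleftPAL (horizontal axis) of each member (rows, ordered by the resting ratio) in resting cells (filled circles) and after LPS (open diamonds), with 95% counting intervals as lines and dotted lines at 2-fold. Resting ratios lie left of 0 for 41 members, while ratios after LPS scatter on both sides. The LPS ratio of Iigp1 rests on 1 count in each library and is not drawn.

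Markers of other cells also differed between the resting libraries. The summed level of 6 neutrophil markers was 10.9 CPM in ΔleftPAL and 2.51 CPM in ΔIRIS, and all 6 were lower in ΔIRIS. Of 11 monocyte and macrophage markers 9 were higher in ΔIRIS, and their sum was 814 CPM in ΔleftPAL and 1091 CPM in ΔIRIS. All 5 markers of conventional dendritic cells were higher in ΔIRIS, with sums of 63.3 and 108 CPM. Plasmacytoid dendritic cells, which are strong producers of type I interferon, had 6 markers with sums of 23.6 and 17.7 CPM, 4 of them lower in ΔIRIS. NK cell markers summed to 12.5 and 8.63 CPM over 5 genes, of which 4 were lower in ΔIRIS. T cell markers summed to 21.1 and 25.3 CPM over 6 genes. Cd4 and Cd8a were higher in ΔIRIS, while Cd3d, Cd3e, Cd3g and Trac were at least 2-fold lower, and the median log2 ratio of the 6 was -1.83. Erythroid genes, all 5 lower in ΔIRIS, made up 41238 CPM in ΔleftPAL and 28559 CPM in ΔIRIS. Of 7 genes that mark LPS-activated B cells 5 were higher in resting ΔIRIS, with sums of 687 and 1116 CPM. The part of these cells in the members' resting difference was not tested.

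On LPS culture 22 of the 42 members fell and 6 rose by edgeR's quasi-likelihood test at an adjusted p under 0.05, where 27.9% of all genes fell and 36.4% rose. The members that rose were Ifit1, Oasl1, Ifih1, Gbp2, Gbp3 and Eif2ak2. In both genotypes 15 members were at least 2-fold lower after LPS, where 14.0% of all genes were, and 4 (Oasl1, Ifih1, Gbp2 and Gbp3) were at least 2-fold higher, where 18.4% of all genes were. Iigp1, counted among the 22 and among the 15, passed the filter only through its resting counts. The members' median log2 ratio (LPS over resting) was -1.14 in ΔleftPAL and -0.41 in ΔIRIS, against 0.12 and 0.13 over all genes. The ratio was at least 2-fold higher in ΔIRIS than in ΔleftPAL for 14 members, where this held for 2.08% of all genes. These 14 were Ifit1, Ifit2, Mx1, Zbp1, Ifi44, Ifi27l2a, Rtp4, Oas1a, Oas2, Oas3, Oasl2, Usp18, Dhx58 and Igtp. The ratio was at least 2-fold lower in ΔIRIS for 2 members, Ifi204 and Pydc3, where this held for 4.6% of all genes. The LPS ratio and the resting genotype ratio of a gene share the resting libraries, so the one is no independent support of the other.

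**Figure D3:**
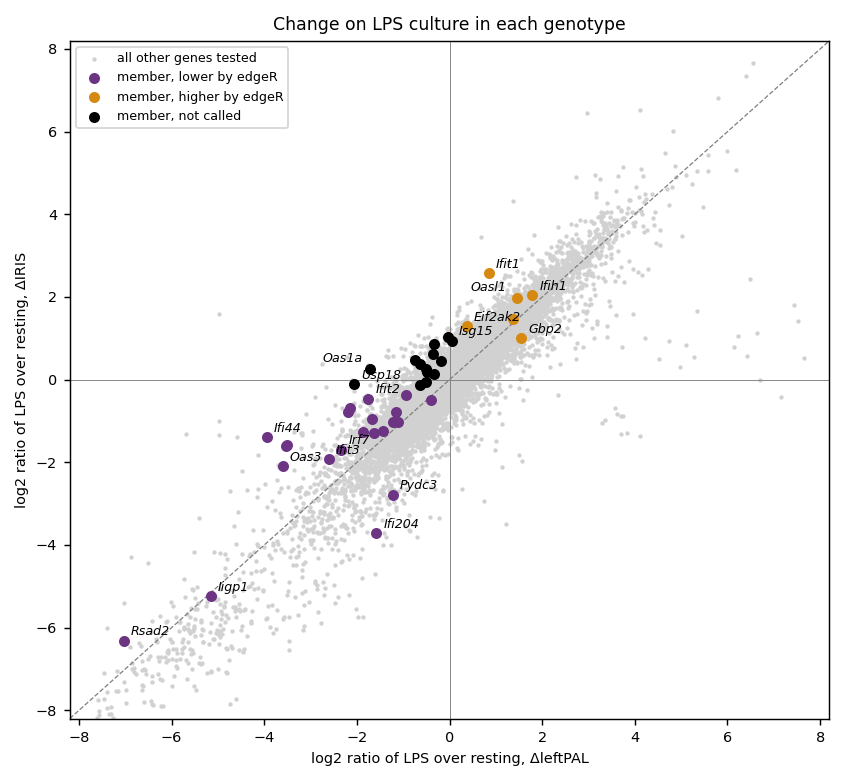
Change on LPS culture as a log2 ratio in ΔleftPAL (horizontal axis) and in ΔIRIS (vertical axis) for the members, coloured by the edgeR call, and the other genes tested (grey; those beyond the axes are not drawn). The dashed line marks equal change, and counts under 3 were raised to 3, which bears on Iigp1. Most members lie above the line, and the 22 that fell spread from Xaf1 near 0 down to Rsad2.

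The B cell markers themselves were lower after LPS, 9 of 9 in ΔleftPAL with a median log2 ratio of -1.0 and 8 of 9 in ΔIRIS with a median of -0.62. Most markers of other cells were lower too, many of them far lower. The monocyte and macrophage markers summed to 16.2 CPM in ΔleftPAL and 21.7 CPM in ΔIRIS after LPS, with 11 of 11 and 10 of 11 lower than at rest. Fcgr1 and C1qa had 0 counts in both, and Itgam was the exception, with 10.5 CPM at rest and 15.4 CPM after LPS in ΔIRIS. All 6 neutrophil markers had 0 counts in both LPS libraries. T cell markers summed to 0.186 and 0.102 CPM, NK cell markers to 1.08 and 0.716 CPM and plasmacytoid dendritic cell markers to 6.27 and 4.54 CPM. Among the last, Ccr9 was higher after LPS in both genotypes, with 1.51 and 1.44 CPM at rest and 2.52 and 2.35 CPM after LPS. Cox6a2 had 1 count at rest and 4 after LPS in ΔleftPAL, and 5 and 3 in ΔIRIS. Of the 5 conventional dendritic cell markers 4 were at least 2-fold lower in both genotypes, and Clec9a had 0 counts in both. Their sum of 48.6 and 37.5 CPM was mostly Flt3, which had 17.8 and 26.1 CPM at rest and 45.3 and 36.0 CPM after LPS. Erythroid genes summed to 58.1 and 124 CPM. The part of these changes in the fall of members was not tested. Markers of LPS-activated B cells summed to 2578 and 2464 CPM, most of it from Mki67, which marks dividing cells, with 1533 and 1629 CPM. Of these 7 markers 5 were higher after LPS in ΔleftPAL and 4 in ΔIRIS. Cd86 and Myc were lower in both genotypes, and Irf4 was lower in ΔIRIS.

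The level of a member was highest in resting ΔleftPAL cells for 35 of the 42, in LPS-activated ΔleftPAL cells for 5, in LPS-activated ΔIRIS cells for 2 (Ifit1 and Eif2ak2) and in resting ΔIRIS cells for none. The matching shares over all genes are not given here, so these counts are not set against a background. The levels of all members summed to 2777 CPM in resting ΔleftPAL and 1810 CPM in resting ΔIRIS cells. After LPS these sums were 1623 CPM in ΔleftPAL and 1559 CPM in ΔIRIS. Per transcript length, Ifi27l2a was the most abundant member in every library, with 329 to 729 TPM (a length-scaled share of transcripts), and Iigp1 the least, with 0.0127 to 1.87 TPM.

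**Figure D4:**
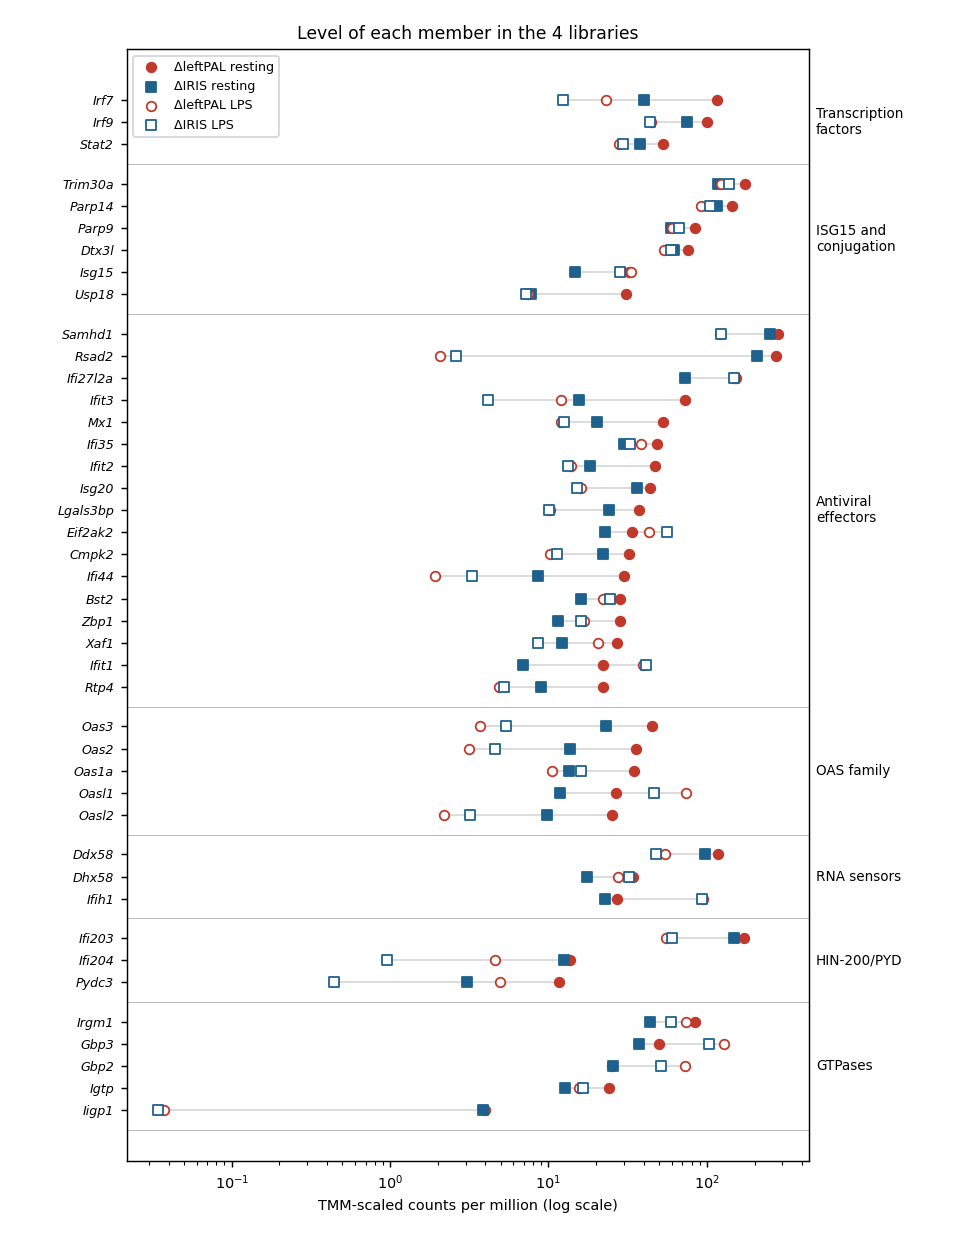
Level of each member (rows, grouped by role) in CPM on a log axis in resting (filled) and LPS-activated (open) cells of ΔleftPAL (red circles) and ΔIRIS (blue squares), 1 library each. For most members the filled red circle lies farthest right, with 35 of 42 highest in resting ΔleftPAL cells. No share over all genes is given for this order. The level of Rsad2 after LPS lies far to the left of its resting level in both genotypes.

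The 3 transcription factors among the members fell on LPS culture by edgeR, where 27.9% of all genes fell. Irf7, the factor that amplifies type I interferon production, had 116 CPM in resting ΔleftPAL and 40.1 CPM in resting ΔIRIS cells, and 23.0 and 12.4 CPM after LPS. It fell by 2.02 on the log2 scale (SE 0.19, edgeR adjusted p = 0.000632). Its log2 ratio of ΔIRIS over ΔleftPAL was -1.53 at rest (95% counting interval -1.63 to -1.43) and -0.89 after LPS (-1.08 to -0.70), lower in ΔIRIS in both conditions. Irf9, the DNA-binding subunit of the type I interferon complex, had 99.8 and 75.1 CPM at rest and 44.6 and 43.7 CPM after LPS. Stat2, its partner, had 52.9 and 37.9 CPM at rest and 27.7 and 29.5 CPM after LPS. For Irf9 and Stat2 the genotypes were 1.33-fold and 1.39-fold apart at rest, and the intervals after LPS held 0.

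Ifit genes code for proteins that bind foreign RNA and block its translation, and the 3 members lie in 1 cluster on chromosome 19. They differed in direction on LPS culture. Ifit1 (chr19:34640871-34650009, +) had 22.1 CPM in resting ΔleftPAL and 6.95 CPM in resting ΔIRIS cells, and 39.7 and 41.2 CPM after LPS. It was higher in both LPS libraries than in either resting one, and rose by 1.68 on the log2 scale (SE 0.41, edgeR adjusted p = 0.0161). Ifit2 (chr19:34550694-34576419, +) had 46.8 and 18.3 CPM at rest and 13.8 and 13.3 CPM after LPS. Ifit3 (chr19:34583531-34588731, +) had 73.0 and 15.7 CPM at rest and 12.0 and 4.13 CPM after LPS. Both fell, Ifit2 by 1.11 (SE 0.32, edgeR adjusted p = 0.0273) and Ifit3 by 2.29 (SE 0.21, edgeR adjusted p = 0.000574). At rest all 3 were lower in ΔIRIS, with log2 ratios of -1.67 (-1.91 to -1.43) for Ifit1, -1.35 (-1.50 to -1.20) for Ifit2 and -2.22 (-2.37 to -2.07) for Ifit3. After LPS Ifit1 (0.05, -0.07 to 0.17) and Ifit2 (-0.05, -0.26 to 0.15) were alike within counting error, while Ifit3 was still lower in ΔIRIS (-1.53, -1.85 to -1.23). Ifit1 and Ifit3 hold the ISRE cores printed above, and the windows of Ifit2 held no such match.

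Rsad2, whose product viperin makes a nucleotide that stops viral polymerases, had the largest change of the members on LPS culture by edgeR. Iigp1 was close to it, at -6.61 (SE 0.48), but rests on 1 count in each LPS library. Rsad2 had 272 CPM in resting ΔleftPAL and 207 CPM in resting ΔIRIS cells, and 2.08 and 2.59 CPM after LPS, from 6654, 6030, 56 and 76 counts. It fell by 6.66 on the log2 scale (SE 0.24, edgeR adjusted p = 0.000158), which is 131-fold in ΔleftPAL and 80.0-fold in ΔIRIS. Cmpk2, the mitochondrial nucleotide kinase encoded next to it on chromosome 12, had 32.5 and 22.0 CPM at rest and 10.2 and 11.3 CPM after LPS. It fell by 1.31 (SE 0.21, edgeR adjusted p = 0.00379). Most monocyte and macrophage markers were lower after LPS as well (values above), and their part in the fall of Rsad2 was not tested.

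Of the other antiviral effectors, Ifi44, Mx1, Rtp4, Samhd1, Isg20 and Lgals3bp fell on LPS culture by edgeR, where 27.9% of all genes fell. Ifi44 had 29.8 and 8.56 CPM at rest and 1.93 and 3.28 CPM after LPS in ΔleftPAL and ΔIRIS. Its order between the genotypes turned, with log2 ratios of ΔIRIS over ΔleftPAL of -1.80 (-2.01 to -1.59) at rest and 0.76 (0.26 to 1.28) after LPS. Mx1, a GTPase that traps viral nucleoprotein, had 53.2 and 20.3 CPM at rest and 12.1 and 12.6 CPM after LPS. Mx1 fell by 1.42 (SE 0.35, edgeR adjusted p = 0.0167). This call was lost with kallisto estimated counts, of which its gene counts were 0.539 to 0.968 times (adjusted p 0.000182 to 0.0890 over the alternatives). There its log2 ratio of LPS over resting was -1.49 in ΔleftPAL and 0.04 in ΔIRIS. Rtp4, a chaperone of receptors, had 22.1 and 9.01 CPM at rest and 4.86 and 5.25 CPM after LPS. Samhd1, which removes the nucleotides that viral DNA synthesis needs, had 282 and 252 CPM at rest and 122 and 123 CPM after LPS, and was thus near the same in both genotypes. Isg20, an RNA exonuclease, had 43.5 and 36.1 CPM at rest and 16.0 and 15.2 CPM after LPS. Lgals3bp, a secreted glycoprotein, had 37.1 and 24.2 CPM at rest and 10.2 and 10.1 CPM after LPS. For these the edgeR log2 change lay between -2.64 for Ifi44 and -1.12 for Samhd1.

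Xaf1, a pro-apoptotic protein, was lower in ΔIRIS in both conditions. It had 27.1 and 12.1 CPM at rest and 20.6 and 8.56 CPM after LPS in ΔleftPAL and ΔIRIS. Its genotype log2 ratio was -1.16 (-1.35 to -0.97) at rest and -1.26 (-1.48 to -1.05) after LPS. By TPM the ratio after LPS was -0.54, under 2-fold. Its fall of 0.45 on LPS culture (edgeR adjusted p = 0.0471) was lost under 4 of 10 alternatives (adjusted p 0.0187 to 0.493 over all of them). By gene counts the log2 ratio of LPS over resting was -0.40 in ΔleftPAL and -0.50 in ΔIRIS. By TPM it was -1.43 and -0.88, and with kallisto estimated counts -0.20 and -0.21.

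Eif2ak2 codes for the kinase PKR, which stops translation when it binds double-stranded RNA, and it rose by edgeR on gene counts. It had 33.5 and 22.9 CPM at rest and 43.4 and 56.2 CPM after LPS in ΔleftPAL and ΔIRIS, a change of 0.83 (SE 0.24, edgeR adjusted p = 0.0270). By TPM its level in ΔleftPAL was lower after LPS, with a log2 ratio of -0.34 from 22.5 TPM at rest to 17.7 TPM after LPS. With kallisto estimated counts, where that ratio was 0.09, and with totals free of erythroid and mitochondrial genes it was no longer called (adjusted p 0.00419 to 0.0676 over the alternatives). Ifi27l2a, a small interferon-induced protein, had 153 and 72.4 CPM at rest and 148 and 147 CPM after LPS. Only its resting ΔIRIS library stood apart. Zbp1, a sensor of Z-form nucleic acids that triggers necroptosis, had 28.1 and 11.5 CPM at rest, the highest and the lowest of its levels, and 16.8 and 15.9 CPM after LPS. Neither Ifi27l2a nor Zbp1 passed the test of LPS culture, and neither did Bst2 (tetherin) or Ifi35. The last 2 were 1.77-fold and 1.61-fold lower in ΔIRIS at rest.

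The OAS genes make 2'-5' oligoadenylates that activate RNase L, and of the 5 members 3 fell, 1 rose and 1 did not pass the test of LPS culture, where 27.9% of all genes fell and 36.4% rose. Oas2 had 35.7 and 13.7 CPM at rest and 3.16 and 4.61 CPM after LPS in ΔleftPAL and ΔIRIS. Oas3 had 45.2 and 23.2 CPM at rest and 3.71 and 5.42 CPM after LPS. Oasl2 had 25.1 and 9.80 CPM at rest and 2.19 and 3.21 CPM after LPS. The 3 genes fell, with log2 changes of -2.52, -2.83 and -2.55 and edgeR adjusted p of 0.00626, 0.00186 and 0.00630. Oas1a had 34.7 and 13.4 CPM at rest and 10.5 and 15.9 CPM after LPS, and was thus lower after LPS in ΔleftPAL and higher in ΔIRIS. These 4 were lower in ΔIRIS at rest and higher in ΔIRIS after LPS, with log2 ratios after LPS of 0.55 for Oas2, Oas3 and Oasl2 and 0.60 (0.38 to 0.82) for Oas1a. Oasl1, an OAS-like protein without that enzyme activity, which represses translation of Irf7, went the other way. It had 26.8 and 11.8 CPM at rest and 73.6 and 46.2 CPM after LPS, and rose by 1.71 (SE 0.17, edgeR adjusted p = 0.000734). Its level was lower in ΔIRIS in both conditions. Oas1a shares sequence with the other Oas1 genes, so that its reads may be split among them.

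None of the 6 genes of Isg15 conjugation and related ubiquitin-like pathways passed the test of LPS culture by edgeR, where 27.9% of all genes fell and 36.4% rose. None had an unadjusted p under 0.05 either, but Usp18 and Parp14 fell by the DESeq2 Wald test, Usp18 also with no filter on low counts, and Parp14 and Dtx3l fell with totals free of erythroid and mitochondrial genes. Isg15 itself had 32.3 and 14.8 CPM at rest and 33.2 and 28.4 CPM after LPS in ΔleftPAL and ΔIRIS. Usp18, which removes Isg15 and blocks the type I receptor, had 31.0 and 7.71 CPM at rest and 7.46 and 7.16 CPM after LPS. Resting ΔleftPAL cells thus stood apart from the other 3 libraries for Usp18, and resting ΔIRIS cells for Isg15. The genotype log2 ratio at rest was -2.01 (-2.23 to -1.79) for Usp18 and -1.13 (-1.30 to -0.96) for Isg15, and after LPS it was -0.06 and -0.23. Dtx3l, Parp9, Parp14 and Trim30a were 1.23-fold to 1.5-fold lower in ΔIRIS at rest and 1.11-fold to 1.14-fold higher after LPS. Dtx3l and Parp9 overlap at their starts on opposite strands, and the counting used the strand.

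The 3 cytosolic RNA sensors went different ways. Ifih1 (MDA5), which binds long double-stranded RNA, had 27.3 and 22.6 CPM at rest and 93.9 and 92.9 CPM after LPS in ΔleftPAL and ΔIRIS, and rose by 1.91 (SE 0.14, edgeR adjusted p = 0.000320). Ddx58 (RIG-I), which binds RNA with a triphosphate end, had 118 and 97.0 CPM at rest and 54.4 and 47.8 CPM after LPS, and fell by 1.07 (SE 0.12, edgeR adjusted p = 0.00118). Dhx58 (LGP2), their regulator, had 34.3 and 17.6 CPM at rest and 27.3 and 32.2 CPM after LPS, and was not called. All 3 were lower in ΔIRIS at rest, Ifih1 and Ddx58 by a log2 of -0.27 and -0.28 and Dhx58 by -0.97.

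The HIN-200 and PYD proteins of chromosome 1 act in DNA sensing, and all 3 members fell on LPS culture by edgeR, where 27.9% of all genes fell. Ifi203 had 172 and 148 CPM at rest and 55.3 and 60.3 CPM after LPS in ΔleftPAL and ΔIRIS. Ifi204 had 13.7 and 12.6 CPM at rest and 4.57 and 0.955 CPM after LPS. Pydc3 had 11.7 and 3.06 CPM at rest and 4.97 and 0.444 CPM after LPS. Ifi204 was thus near equal at rest and lower in ΔIRIS after LPS, with a log2 ratio of -2.26 (-2.90 to -1.66), while Pydc3 was lower in ΔIRIS in both, by -1.93 and -3.49. The sizes are uncertain, since gene counts and kallisto counts differed. With kallisto estimated counts the genotype ratio after LPS was -1.01 for Ifi204 and -1.30 for Pydc3, and that of Pydc3 at rest was -1.29. The gene count of Ifi204 was 0.896 to 2.05 times the kallisto count, and that of Pydc3 0.222 to 0.959 times. The fall of Pydc3 was lost without the genotype in the fit.

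Among the interferon-inducible GTPases, which attack the membranes around intracellular microbes, Gbp2 and Gbp3 rose. Gbp2 had 25.2 and 25.7 CPM at rest and 73.2 and 51.6 CPM after LPS in ΔleftPAL and ΔIRIS, and rose by 1.27 (SE 0.17, edgeR adjusted p = 0.00184). Gbp3 had 49.6 and 37.3 CPM at rest and 128 and 103 CPM after LPS, and rose by 1.41 (SE 0.13, edgeR adjusted p = 0.000526). After LPS both were lower in ΔIRIS, by log2 ratios of -0.50 (-0.60 to -0.41) and -0.32 (-0.39 to -0.25). Igtp had 24.1 and 12.6 CPM at rest and 15.5 and 16.5 CPM after LPS, and Irgm1 had 84.0 and 43.9 CPM at rest and 74.0 and 59.7 CPM after LPS. Neither was called. Iigp1 fell from 97 and 112 counts at rest to 1 count in each LPS library (edgeR adjusted p = 0.000339). The log2 ratio from these counts was -6.74 in ΔleftPAL (-12.1 to -4.23) and -6.82 in ΔIRIS (-12.1 to -4.31). With a mean of 52.75 counts, Iigp1 passed the filter of 50 only through the resting libraries. Its adjusted p is therefore no independent support of its fall.

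The core of the ISRE was present in members of each kind of response. Of the members that rose on LPS culture 5 of 6 held it, of those that fell 6 of 16 with a window, and of those not called 6 of 8. Among members at least 2-fold lower in resting ΔIRIS cells 4 of 10 with a window held it, and among the other members 13 of 20. These shares are given without a test.

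The interferons themselves were at or near 0. None of 21 ligand genes passed the filter. Ifnb1 had 0 counts in all libraries, which allows up to 0.102 to 0.123 CPM (3 counts), and no Ifna gene had more than 2 gene counts in a library. With kallisto estimated counts Ifnb1 was also at 0. Ifna16, at 0 by gene counts, had 6.51 and 8.32 in resting ΔleftPAL and ΔIRIS cells and 2.02 and 5.05 after LPS, at most 0.431 TPM. Ifnk had 1 and 3 kallisto estimated counts at rest and 8 and 5 after LPS, at most 0.518 TPM. Ifnz had 4.26 in resting ΔIRIS cells. Ifng, the product of T and NK cells, had 12 and 7 counts in resting ΔleftPAL and ΔIRIS cells and 3 and 1 after LPS. Transcripts present at other times of the culture, or in cells lost from it, were not measured.

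The receptors were present in all libraries. At rest 3 of the 5 tested were higher in ΔIRIS, near the background, where 5648 of 11286 genes were higher. Of 6 receptor genes 5 passed the filter, and all 5 fell on LPS culture by edgeR, where 27.9% of all genes fell. Ifnar1 had 124 and 156 CPM at rest and 75.5 and 69.5 CPM after LPS in ΔleftPAL and ΔIRIS. Ifnar2 had 27.3 and 25.4 CPM at rest and 19.3 and 18.5 CPM after LPS. Ifngr1, the ligand-binding chain for interferon gamma, had 79.3 and 96.8 CPM at rest and 20.3 and 18.5 CPM after LPS. Over the 5 receptors the median log2 ratio of ΔIRIS over ΔleftPAL at rest was 0.27, with Ifnar1, Ifngr1 and Ifngr2 higher and Ifnar2 and Il10rb lower in ΔIRIS. Among the kinases and STATs of these receptors, Jak1, Jak2 and Tyk2 fell and Stat3 rose on LPS culture by edgeR. Jak1 had 309 and 357 CPM at rest and 203 and 181 CPM after LPS in ΔleftPAL and ΔIRIS. Stat3 had 112 and 103 CPM at rest and 161 and 143 CPM after LPS.

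Of 6 other interferon regulatory factors that passed the filter, Irf1, Irf2 and Irf5 fell. Irf4, which drives plasma cell differentiation, was 1 of 2 genes of these regulatory lists at least 2-fold apart at rest, with 285 CPM in ΔleftPAL and 604 CPM in ΔIRIS. The other was Irf2bp2, a corepressor of Irf2, with 132 and 289 CPM. Of 9 inhibitors 3 fell and 1 rose, and of 14 upstream sensors and adaptors 5 fell and 3 (Ticam1, Ticam2 and Myd88) rose. Over all genes 27.9% fell and 36.4% rose, and the falling shares of the inhibitors and of the sensors lay near that background. Tlr4, the LPS receptor, had 30.3 and 25.3 CPM at rest and 16.9 and 19.8 CPM after LPS. The median resting ratio of the sensors was -0.27, and 11 of the 14 were lower in ΔIRIS, where 5638 of 11286 genes were.

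Other interferon-stimulated genes, listed apart from the members, were also mostly lower in resting ΔIRIS cells. Of 50 genes listed 44 passed the filter. On LPS culture 23 of them fell and 3 (Gbp5, Psmb8 and Psmb9) rose by edgeR, where 27.9% and 36.4% of all genes did. In resting cells 38 of the 44 were lower in ΔIRIS, where 5638 of 11286 genes were, with a median log2 ratio of -0.50. At least 2-fold lower were Slfn1, Oas1g, Gbp6, Tgtp2, Mx2, Tgtp1, Ifi47 and Slfn5, and 1 of the 44, Ifi205, was at least 2-fold higher. Over all genes these shares were 1.36% and 2.41%. Slfn1, a regulator of lymphocyte growth, had 9.33 CPM in ΔleftPAL and 1.38 CPM in ΔIRIS, and Gbp6 had 30.3 and 10.1 CPM. After LPS the median ratio was 0.031, none was at least 2-fold lower and 2, Ifitm3 and Trim34a, were at least 2-fold higher in ΔIRIS. This list too was drawn up with results of these data known.

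**Figure D5:**
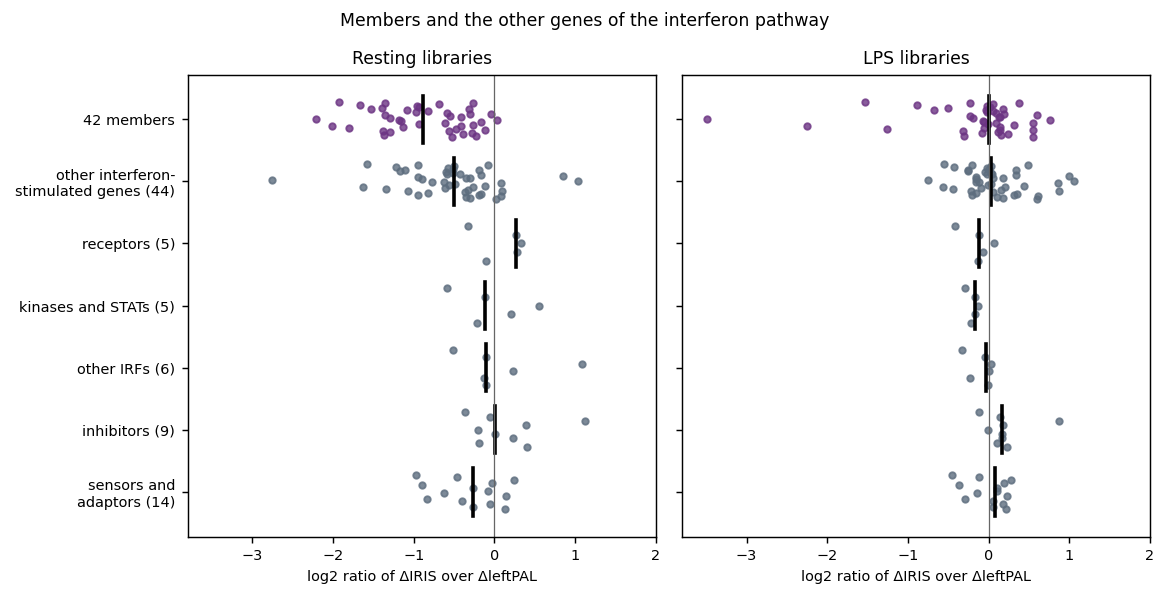
The log2 ratio of ΔIRIS over ΔleftPAL (horizontal axis) of single genes (points) in the resting libraries (left) and the LPS libraries (right), for the members and 6 lists of pathway genes, with the number of genes that passed the filter in parentheses. Black bars are medians. At rest the bars of the members (-0.88) and of the other interferon-stimulated genes (-0.50) lie farthest left, and that of the receptors (0.27) lies right of 0. The LPS point of Iigp1 is not drawn.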

How the data were processed

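Total RNA was depleted of ribosomal RNA and sequenced with a stranded kit. The authors mapped paired reads with STAR 2.4.0a to mm10 and deposited gene counts from featureCounts (Subread 1.4.6-p1, by strand, primary alignments, multimapped reads included), with no normalization. They also deposited kallisto 0.42.3 estimated counts and TPM values per transcript, which were summed here per gene. Of 41343 rows, 1 without a gene name (0.00876 to 0.0264% of counts) was left out. The LPS response was tested with edgeR 4.0.16 in R 4.3.3 (quasi-likelihood, TMM factors, genotype as block, 1 residual degree of freedom, Benjamini-Hochberg over 11286 genes). The pairs follow the mice, which gave both libraries of a genotype. The 2 libraries' deviations correlated at 0.092 across genes. Genotype log2 ratios came from TMM-scaled CPM with counts under 3 raised to 3, exact Clopper-Pearson 95% intervals (Python 3.11.15, scipy 1.17.1) and a call at 2-fold. Every member may be named, and values in every library are given for members called or 2-fold apart. Pathway genes are named on the same terms. Members and lists were chosen with earlier results of these data known. Alternatives were other scalings, filters, priors, DESeq2 1.42.0, kallisto values and no block. Descriptions of pooling differ between the labels and the study's methods. The result of 1 pathway gene is not reported here.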

Additional observations from a re-analysis of the deposited data

Results flagged for a closer look

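Of the members, 8 moved in opposite directions on LPS culture in the 2 genotypes, lower in ΔleftPAL and higher in ΔIRIS, with counting intervals that left out 0 in both. This held for 146 of 11286 genes (1.29%), and 163 genes (1.44%) went the opposite ways. With 1 library per group the contrast between ΔleftPAL and ΔIRIS was not tested, and it shares the resting libraries with the resting difference. The log2 ratio of LPS over resting was higher in ΔIRIS than in ΔleftPAL by 1.97 for Oas1a, 1.22 for Zbp1, 1.20 for Dhx58 and 1.02 for Igtp. The same difference was 0.97 for Bst2, 0.76 for Trim30a, 0.68 for Parp9 and 0.63 for Irgm1. By TPM the ratio in ΔIRIS was below 0 as well for Oas1a (-0.015), Parp9 (-0.21) and Trim30a (-0.11), and with totals free of erythroid and mitochondrial genes it was -0.0067 for Parp9, so that the directions were no longer opposite there. The other 5 kept opposite directions under all 7 alternatives of scaling, prior and quantification. The test of LPS culture looks for a change common to both genotypes, and changes in opposite directions cancel in it. That none of the 8 passed it is therefore no separate result.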

How the results depend on the processing

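The members' edgeR calls on LPS culture numbered 20 to 24 lower and 5 to 6 higher over the alternatives. Without the replicate block (genotype left out) they were 20 and 6, and over all genes 3998 rose and 3074 fell. As reported 4105 rose and 3148 fell, while fewer rose than fell with totals free of erythroid and mitochondrial genes (3426 and 3679) and with the DESeq2 Wald test (3155 and 3184). Members at least 2-fold lower in ΔIRIS at rest numbered 16 to 19, and those after LPS fell from 4 to 2 with TPM. The members' median LPS change of -0.85 was -0.68 with kallisto estimated counts, -1.03 with totals free of erythroid and mitochondrial genes (an alternative added after seeing the data) and -0.99 with DESeq2, and ran from -1.14 without the ΔIRIS pair to -0.41 without the ΔleftPAL pair. Calls were gained in some settings for Usp18, Parp14 and Dtx3l.

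Counts over all genes moved with the filter. At a minimum mean of 10 counts, of 200 counts and with no filter, genes 2-fold lower in ΔIRIS at rest were 399, 65 and 792, and higher 562, 141 and 871. After LPS they were 561, 104 and 881 lower (159 with a prior of 0.5 CPM) and 238, 44 and 397 higher. A 2-fold higher LPS change in ΔIRIS was seen for 543, 108 and 1036 genes, and a 2-fold fall in both genotypes for 2419, 1004 and 2895. With TPM 1199 genes were 2-fold higher in both genotypes and 2325 lower, and the higher share of calls was 34.0% there, 46.7% with totals free of erythroid and mitochondrial genes, 46.8% with no filter and 56.9% as reported. With TPM that share was 49.3% at rest (64.0% as reported; 52.4% with no filter) and 17.1% after LPS (27.9%). The median of all genes moved by -0.26 and -0.27 with TPM, 0.12 and 0.16 with kallisto estimated counts and -0.16 and -0.19 with totals free of erythroid and mitochondrial genes in the LPS ratios of ΔleftPAL and ΔIRIS, and by under 0.1 in the genotype ratios. The causes were not tested. The resting ratio of Gbp2 lay on either side of 0.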
